A study of Mus musculus with 7 samples.

Results

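The genes described here encode enzymes that add acyl groups to histone lysines, or that supply the acetyl-CoA they use: Ep300, Crebbp, Kat2a, Kat2b, Kat5, Kat6a, Kat7, Kat8 and Acss2. Taken for them was every peak of histone H3 lactylated at lysine 18 (H3K18La) whose annotated gene is one of these 9. This gave 36 of the 108253 peaks, from 8 of the 9 genes, out of 25400 genes with a peak. Kat2a had none. The products of Ep300, Crebbp, Kat2a and Kat2b also carry a bromodomain, which binds acetyl-lysine, but genes whose products are known mainly as readers of acyl-lysine enter only through a list of related genes. What was measured is the lactyl mark on the chromatin of these genes, not their transcripts or the activity of the enzymes.

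H3K18La was profiled by CUT&Tag, in which an antibody against a mark tethers an enzyme that releases the DNA around it for sequencing. Retinas of C57Bl/6J mice were taken at postnatal day 4 (P4, 2 libraries), P10 (2 libraries) and P28 (3 libraries) and dissociated with papain, with 500000 cells per assay. The labels name no mutant allele and no treatment at any age. Of the 7 libraries, 6 are labelled batch 1, and batch 2 holds P28 replicate 1 alone. Over genes, the chi-square per degree of freedom of that library against the other P28 libraries was 1.77 and 1.76, and that between those was 1.18. The study calls its replicates biological, but the sources used here do not say whether each came from its own animal, so p-values measure the spread between these libraries.

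Histone acetyltransferases move an acyl group from acyl-CoA to a lysine side chain, which weakens the hold of the histone tail on DNA and creates a site for reader proteins. Ep300 encodes p300 and Crebbp encodes CBP, paired coactivators that accept several acyl-CoAs, and p300 has been proposed as a writer of lactyl-lysine. In the postnatal retina, progenitors stop dividing and rod photoreceptors, whose metabolism releases much lactate, come to make up most of the cells.

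The libraries were shallow at the younger ages, and this bounds every value below. Reads in peaks ranged from 199970 (P10 replicate 1) to 8274373 (P28 replicate 2). Signal is given as RPKM, which divides the reads of a peak by its length and by a normalised library size. Over all 36 peaks the P4 libraries held 176 reads, the P10 libraries 236 and the P28 libraries 6569. At 23 peaks no P4 library had more than 3 reads, called the floor here, and at 21 peaks no P10 library did. Peaks called at any age were merged into 1 set, so a region can be in it through P28 alone, and its test of P28 against P4 is then not independent of that choice. Peaks took 16.3% and 17.6% of the normalised library size at P4 against 42.4% to 57.1% at P28, and the deposited values carry that difference. All 6 photoreceptor marker promoters were called higher at P28 than at P4, with summed RPKM of 10.48 to 13.54 at P4 and 84.69 to 124.52 at P28. The 4 bipolar markers lay above P4 in every P28 library and Onecut1 and Rbpms, the 2 of 5 amacrine, horizontal and ganglion markers with a promoter peak, lay below (summed RPKM 3.77 to 4.96 and 7.89 to 8.57 at P4, 7.82 to 11.05 and 2.3 to 4.44 at P28), and none of these was called. Of the Mueller glia markers Glul was called higher, and none of the progenitor, pigment epithelium and endothelium markers was called. Among these, Cdh5 lay below P4 in every P28 library, and Cldn5, Mki67, Fgf15 and Best1 lay above. None of the 4 microglia and blood markers had a promoter peak. Of 4 markers of tissues outside the eye, Ckm and Myh7 had promoter peaks and both were called higher at P28 (summed RPKM 2.4 to 3.43 at P4, 18.57 to 27.49 at P28), and Alb had no peak. The part of these shifts in the results below was not tested. Retinas are mixtures of cells, so fewer cells of a type and less of the mark per cell cannot be told apart.

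Of the 36 peaks, 8 lay in promoters (from 1000 bases before to 500 after a start site), 20 in introns, 4 in exons, 3 in distal intergenic sequence and 1 in a 3' UTR. The 3 windows below are the central 300 bases of peaks in GRCm38, plus strand. They show the Kat6a promoter window with the most GC boxes, the intronic window of Crebbp with the highest P28 signal in its introns, and the Kat6a intron window with the most copies of a homeobox word. The last sequence is the stretch of 250 bases before the RefSeq start of Kat2a, minus strand, the member on which no peak was found. Capitals mark GGGCGG (the GC box) and TAATCC (a word bound by retinal homeodomain factors), searched on both strands, with overlapping copies counted.
Kat6a promoter peak, chr8:22859827-22860126: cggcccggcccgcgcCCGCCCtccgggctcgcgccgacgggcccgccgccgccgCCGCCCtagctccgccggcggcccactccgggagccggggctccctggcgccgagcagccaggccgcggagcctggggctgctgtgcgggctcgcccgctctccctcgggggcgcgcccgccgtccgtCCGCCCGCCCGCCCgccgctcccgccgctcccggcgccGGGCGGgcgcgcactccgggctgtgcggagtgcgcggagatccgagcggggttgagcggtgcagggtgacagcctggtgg
Kat6a intron peak, chr8:22897616-22897915: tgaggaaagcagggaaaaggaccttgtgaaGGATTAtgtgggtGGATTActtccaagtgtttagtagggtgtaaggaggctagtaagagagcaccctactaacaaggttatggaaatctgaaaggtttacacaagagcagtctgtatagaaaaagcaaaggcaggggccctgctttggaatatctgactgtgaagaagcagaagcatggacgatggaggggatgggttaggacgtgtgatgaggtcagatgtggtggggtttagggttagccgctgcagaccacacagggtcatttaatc
Crebbp intron peak, chr16:4102948-4103247: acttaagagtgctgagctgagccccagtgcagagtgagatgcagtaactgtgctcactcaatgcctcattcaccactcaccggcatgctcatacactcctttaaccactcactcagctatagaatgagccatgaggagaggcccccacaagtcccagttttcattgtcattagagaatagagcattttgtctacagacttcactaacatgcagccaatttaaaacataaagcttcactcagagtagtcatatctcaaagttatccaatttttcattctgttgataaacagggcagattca
Kat2a, before the start, chr11:100712468-100712717: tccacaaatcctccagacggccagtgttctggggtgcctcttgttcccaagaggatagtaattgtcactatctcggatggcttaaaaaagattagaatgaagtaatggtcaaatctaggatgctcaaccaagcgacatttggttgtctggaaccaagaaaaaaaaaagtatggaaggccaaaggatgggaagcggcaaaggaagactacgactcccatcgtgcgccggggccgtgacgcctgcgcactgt

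The Kat6a promoter window held 6 copies of GGGCGG and 53 CG pairs, while the Crebbp intron window held neither word and 1 CG pair. The central 300 bases of 7 of the 8 member promoter peaks held GGGCGG, against 44.8% of all 17144 promoter peaks. TAATCC was in none of these 8 windows and in 7.0% of all promoter windows. Of the 28 other windows, 1 held GGGCGG and 6 held TAATCC, against 5.5% and 12.3% of all 91109 other peaks. The median GC content was 62.8% in the member promoter windows and 46.8% in the others, close to the 60.3% and 49.3% of all peaks of each kind. Single windows crossed this split, as in Kat6a, where an intron window 11.9 kb past the start had 61.0% GC and a promoter window 52.0%. The stretch before Kat2a held neither word and 11 CG pairs. In the 250 bases before all RefSeq starts, 32.7% held GGGCGG and 6.3% held TAATCC. A match is a description of the letters and not of binding.

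From P4 to P28 the mark rose at 19 of the 36 peaks, 17 of them outside promoters. These are the peaks that limma called different at an adjusted p under 0.01, and no member peak was called lower. Among all peaks 23.1% were called, and 18.9% were called higher. That background holds many weak peaks. Among the 54127 peaks whose average signal reached the median, 36.1% were called, 99.3% of these calls being higher. Of the 26 member peaks among them, 16 were called. Every P28 library lay above every P4 library at 33 of the 36 peaks, against 50.6% of all peaks. The called peaks were 9 of 14 in Kat2b, 6 of 8 in Crebbp, the single one of Ep300, 1 of 7 in Kat6a, 1 of 2 in Kat7 and 1 of 2 in Acss2. The single peaks of Kat5 and Kat8 were not called. Some called peaks were at the floor at both P4 and P10. These were the called ones of Acss2 and Kat6a and the Crebbp peaks starting at 4104887, 4157132, 4181696 and 4212951. The Kat2b peaks starting at 53554218, 53577038 and 53582476 were as well. Their entry in the set may rest on P28 alone, and their calls are then not independent of it. Outside promoters 17 of 28 member peaks were called, where 21.4% of all such peaks were, and in promoters 2 of 8, where 32.2% were.

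**Figure D1:**
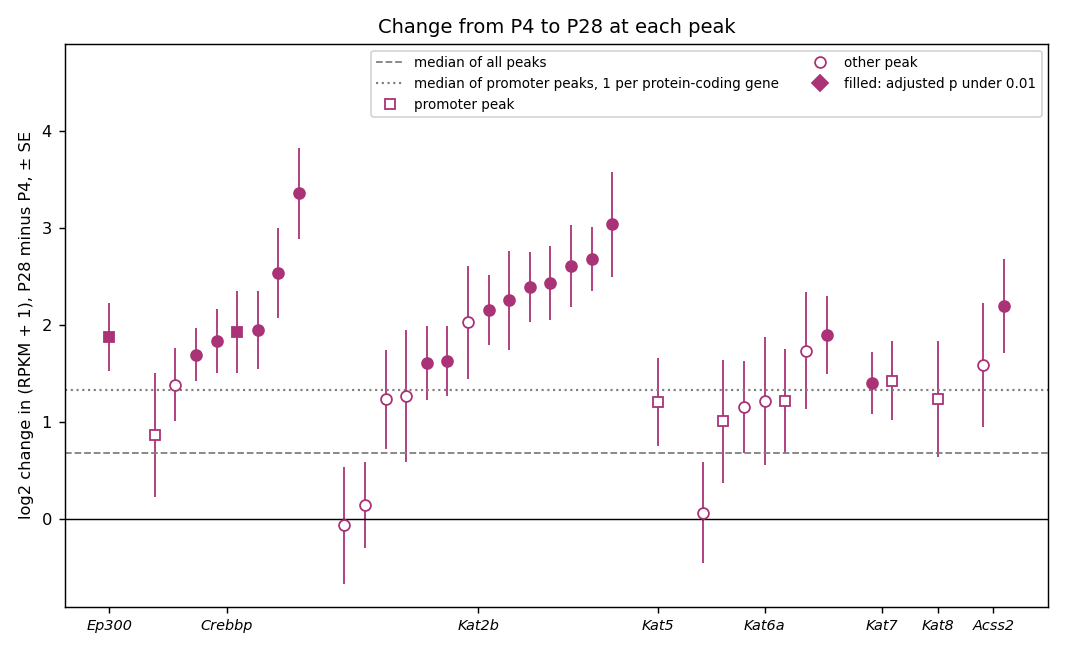
Change in log2(RPKM + 1) from P4 to P28 at each of the 36 peaks, grouped by gene, with the standard error from limma. Squares are promoter peaks and filled symbols have an adjusted p under 0.01; 33 of the 36 peaks lie above the median of all peaks (0.68), and the filled peaks are most frequent in Kat2b and Crebbp.

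The median change over member peaks was 1.67 on the log2(RPKM + 1) scale, against 0.68 over all peaks. Outside promoters it was 1.79 for the 28 member peaks against 0.54 for 91109 peaks. At 1 promoter peak per protein-coding gene, the one nearest the start, it was 1.23 for the 6 members with such a peak against 1.33 over 11685 genes. The promoter medians of the members and of all genes thus lay close together, and those of the other peaks lay further apart. The difference was not tested.

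The size of these changes depends on how libraries are scaled. With each library scaled to its reads in peaks, the median of all peaks went from 0.68 to -0.29. The member promoter median went from 1.23 to 0.21, and the share of all calls that were higher at P28 from 81.8% to 31.9%. On that scale 6 member peaks were called (22.9% of all peaks), all higher, 4 in Crebbp introns and 2 in Kat2b introns, and 32 of the 36 still lay above the median of all peaks. Leaving out P4 replicate 1 or P4 replicate 2 left 2 member peaks called, against 7.18% and 7.66% of all peaks, and leaving out P28 replicate 2 or 3 left 8, against 10.6% and 10.5%. Within batch 1, without P28 replicate 1, 11 were called against 13.7% of all peaks.

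When the reads of all peaks of a gene were summed, the signal at P28 exceeded that at P4 in every library for all 8 genes, as it did for 58.7% of all genes. limma called 6 of the 8 sums, where 33.7% of all genes were called higher. Among the 12700 genes whose average signal reached the median, 63.7% were called, 99.1% of these calls being higher. Of the 7 members among them, 6 were called, so the excess over genes of similar strength was smaller. Over all genes again, without P4 replicate 1 limma called 2 of the 8 sums, where 19.9% of all genes were called in either direction. Without P4 replicate 2, P28 replicate 2 or P28 replicate 3 it called 4, where 19.6%, 25.8% and 24.9% of all genes were. On the scale of reads in peaks only Ep300 and Kat2b passed the threshold, at changes of 0.76 and 0.87, where 37.0% of all genes were called and 30.7% of those calls were higher.

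**Figure D2:**
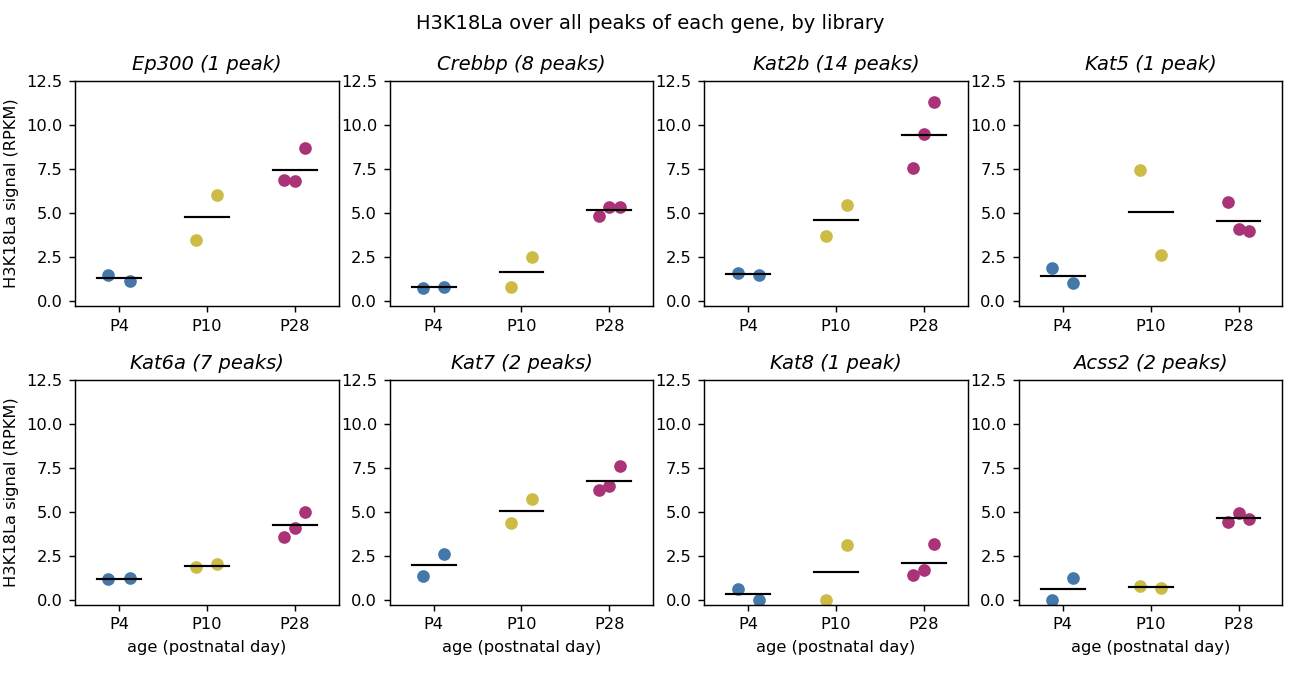
H3K18La signal in RPKM over all peaks of each gene, with 1 point per library and a bar at the mean of each age. All P28 points lie above all P4 points in each of the 8 genes, from 1.37 to 3.15 RPKM in Kat8 to 7.55 to 11.29 RPKM in Kat2b.

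The p300 and CBP genes both gained signal, Ep300 at its promoter and Crebbp at 5 intron peaks and 1 promoter peak. Ep300, the gene of p300, had a single peak, over its promoter on chr15:81585109-81586673. It held 1.45 and 1.14 RPKM at P4, 3.46 and 6.04 at P10, and 6.87, 6.79 and 8.72 at P28. The ages did not overlap in any pair. The reads pooled over libraries were 5.49 times as dense at P28 as at P4 (95% exact interval 2.75 to 12.8, for counting error only). The change was 1.88 ± 0.35 (SE) with an adjusted p of 0.00269 among all peaks, a call that held under 7 of 15 alternatives. Fitted among the gene sums, the same values gave 0.000399, and this call held under all 15 alternatives. P10 against P4 gave 1.29 ± 0.28 (adjusted p = 0.00631 among gene sums, past the threshold under 4 of 15 alternatives), and P28 against P10 gave 0.59 ± 0.25 (adjusted p = 0.123). The peak also covers a microRNA model, Gm23880, within Ep300.

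Crebbp, the gene of CBP, lies on the minus strand of chr16:4081328-4213997 and had 8 peaks, 2 in its promoter and 6 in introns. Summed over them, it held 0.75 and 0.8 RPKM at P4, 0.81 and 2.48 at P10, and 4.84, 5.34 and 5.36 at P28. P10 replicate 1 sat at the P4 level and replicate 2 between the other ages, so the P10 libraries differed. The change from P4 to P28 was 1.80 ± 0.31 (adjusted p = 0.0013), with pooled reads 6.82 times as dense (4.39 to 11.2), and was called under 12 of 15 alternatives. P10 against P4 was not called (0.50 ± 0.34, adjusted p = 0.28), nor was P28 against P10 (1.30 ± 0.31, adjusted p = 0.0209).

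The strongest Crebbp peak was not at its start but in an intron 110.6 kb into the gene, chr16:4102842-4103352, whose centre is printed above. It held 1.78 and 0 RPKM at P4, 3.53 and 7.71 at P10, and 13.35, 16.96 and 18.59 at P28. The ages did not overlap. It changed by 3.36 ± 0.47 (adjusted p = 0.00065), and rested on 2 reads at P4 against 222 at P28, a pooled ratio of 16.6 (4.55 to 138). The call held under 13 of 15 alternatives. A neighbouring intron peak, chr16:4104887-4105392, had no P4 read, 3.57 and 4.67 RPKM at P10, and 2.59, 5.71 and 7.17 at P28. It was the only Crebbp peak called between P10 and P4 (2.35 ± 0.50, adjusted p = 0.00641), from 4 reads at P10, which was at the floor as P4 was. That call held under 8 of 15 alternatives, and the one between P28 and P4 under 10. Against 3 reads over the P4 libraries it was at least 3.65-fold higher at P28.

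Of the other Crebbp introns, chr16:4121497-4122529 went from a mean of 0.8 to 2.4 and 5.82 RPKM over the ages (P28 against P4 adjusted p = 0.00401, called under 7 of 15 alternatives). The peak chr16:4181696-4183343 held 1 read over both P4 libraries and none at P10, against 2.87 to 3.25 RPKM at P28 (adjusted p = 0.00223, called under 10 of 14 alternatives). At chr16:4157132-4157789 no P4 or P10 library had a read, so its entry in the set rested on P28, which held 1.99 to 2.71 RPKM. Its call (adjusted p = 0.00124, kept under 11 of 14 alternatives) is among the 19 and is not independent of that entry. The P28 signal was at least 2.1-fold above 3 reads over the P4 libraries. The last, chr16:4158385-4158765, was also empty before P28 and was not called (adjusted p = 0.0167).

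The promoter of Crebbp held a pair of peaks. The narrow one, chr16:4212951-4213421, held 0.96 and 1.27 RPKM at P4, no read at P10, and 6.68, 5.61 and 9.17 RPKM at P28. It was called between P4 and P28 (1.93 ± 0.42, adjusted p = 0.0055) and rested on 2 P4 reads, with a pooled ratio of 5.99 (1.61 to 50.3), and the call held under 6 of 15 alternatives. The wide one, chr16:4213758-4215223, held 1.86 and 2.44 RPKM at P4, 0 and 4.84 at P10, and 5.19, 5.24 and 3.89 at P28. Its P10 libraries lay on either side of both P4 libraries, and its change of 0.87 ± 0.64 was not called (adjusted p = 0.29; pooled ratio 2.34, 1.31 to 4.6). The difference between these peaks was not tested. On the scale of reads in peaks its change was -0.31.

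Kat2a and Kat2b encode the paralogues GCN5 and PCAF, which serve as exchangeable catalytic subunits of the SAGA and ATAC coactivator complexes. Kat2a lies on chr11:100704746-100712465 and had no H3K18La peak at any age. The nearest peaks were 9341 bases to its left, annotated to Dhx58, and 25242 bases to its right, annotated to Rab5c. The table holds no reads outside peaks, so a level for Kat2a cannot be given.

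Kat2b, on the plus strand of chr17:53566861-53672720, had 14 peaks, more than any other member, spread from 11.7 kb before its start to 93.8 kb after it. Summed, it held 1.56 and 1.48 RPKM at P4, 3.68 and 5.47 at P10, and 7.55, 9.5 and 11.29 at P28. The ages did not overlap. The change from P4 to P28 was 2.03 ± 0.24 (adjusted p = 0.000219), and the pooled reads were 6.29 times as dense (5.12 to 7.81), the narrowest interval of the group. This call held under all 15 alternatives. P10 against P4 was called as well (1.13 ± 0.26, adjusted p = 0.00906), though only under 5 of 15 alternatives, and P28 against P10 was not (0.91 ± 0.24, adjusted p = 0.029). Of all 25400 gene sums, 89.0% changed less from P4 to P28 than Kat2b.

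The Kat2b peak with the most P28 signal lay in an intron 68.8 kb past the start. It held 1.3 and 2.98 RPKM at P4, 10.31 and 12.94 at P10, and 16.1, 17.24 and 22.31 at P28. No ages overlapped, and most of the gain was there by P10. It changed by 2.68 ± 0.33 from P4 to P28 (adjusted p = 0.000348) and by 2.05 ± 0.36 from P4 to P10 (adjusted p = 0.00282, called under 10 of 15 alternatives). Of the 19 called member peaks it was the only one called between P4 and P28 under all 15 alternatives. A neighbour, chr17:53637550-53638325, held 0.59 and 1.54 RPKM at P4, 4.65 and 7.11 at P10, and 5.41, 5.07 and 4.9 at P28. It was called between P10 and P4 (1.76 ± 0.41, adjusted p = 0.00926) and between P28 and P4 (adjusted p = 0.00776), under 3 and 5 of 15 alternatives, and P28 lay within the range of P10.

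Kat2b has no peak in the promoter class, but only by the definition. Its exon peak chr17:53567457-53568930 begins 596 bases past the start. It held 3.39 and 2.43 RPKM at P4, 3.67 and 8.02 at P10, and 14.06, 15.43 and 20.04 at P28. The ages did not overlap, and the change from P4 to P28 was 2.16 ± 0.36 (adjusted p = 0.00139, called under 10 of 15 alternatives; pooled ratio 5.46, 3.39 to 9.44). The intron peak chr17:53578359-53580400 held the most reads of any member peak, 817 at P28. It held 1.56 and 1.75 RPKM at P4, 3.54 and 11.97 at P10, and 13.75, 15.47 and 16.58 at P28 (change 2.61 ± 0.42, adjusted p = 0.00123, called under 13 of 15 alternatives).

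The other called Kat2b peaks were intron peaks at 10.2, 15.6 and 28.6 kb, an exon peak at 56.4 kb and an intergenic peak 11.7 kb before the start. In that order their calls held under 9, 12, 6, 13 and 5 of 15 alternatives. The peak at 10.2 kb changed most (3.04 ± 0.54, adjusted p = 0.00199), from 1 P4 read, and its P28 libraries ranged from 4.55 to 15.8 RPKM. The exon peak at 56.4 kb rose from a mean of 0.8 to 8.51 RPKM (adjusted p = 0.000866). The intergenic peak held 3 reads at P4 and 1 at P10 against 5.57 to 7.33 RPKM at P28 (adjusted p = 0.00671). Signal along Kat2b did not rise everywhere. At chr17:53620303-53620763 and chr17:53660761-53661769 the changes were 0.15 ± 0.44 and -0.06 ± 0.60, and P28 overlapped P4. Of the remaining introns, those at 20.1, 23.3 and 34.5 kb had every P28 library above both P4 libraries but were not called (changes of 1.24, 2.03 and 1.27, adjusted p = 0.0753, 0.0195 and 0.155).

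**Figure D3:**
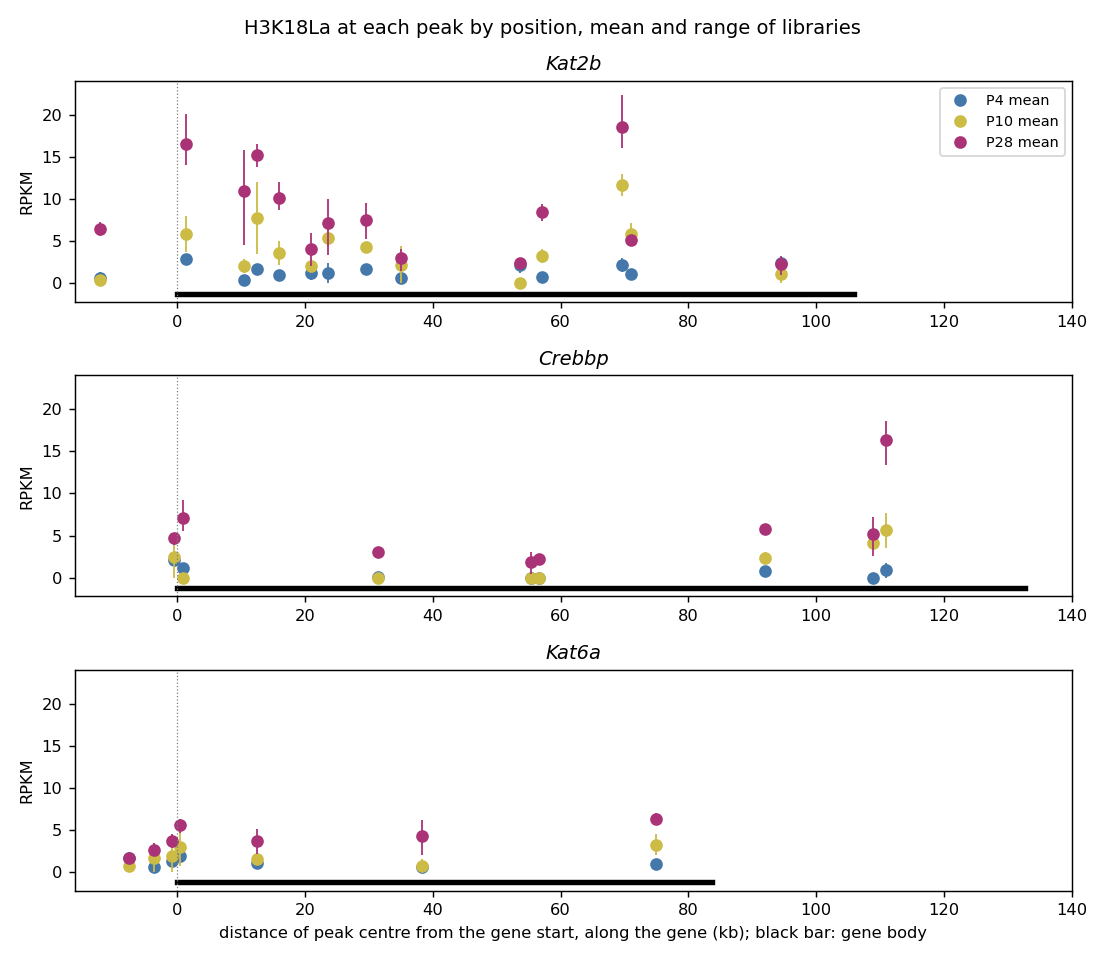
Mean H3K18La signal in RPKM at each peak of Kat2b, Crebbp and Kat6a against the distance of the peak centre from the gene start, with vertical lines over the range of libraries of an age and a black bar for the gene body. The highest P28 means lie in the gene bodies of Kat2b (18.55 RPKM) and Crebbp (16.3 RPKM), and in Kat6a no peak exceeds 7.01 RPKM in any library.

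Kat5, Kat6a, Kat7 and Kat8 belong to the MYST family of acetyltransferases, in which each enzyme works in a multi-subunit complex with its own targets. Kat5 encodes TIP60, the catalytic subunit of the NuA4 complex, and had 1 promoter peak, chr19:5609518-5610727. It held 1.88 and 0.99 RPKM at P4, 7.46 and 2.61 at P10, and 5.64, 4.06 and 4 at P28. Both later ages lay above P4 and overlapped each other, and P10 replicate 1 gave the highest value of all. The change from P4 to P28 was 1.21 ± 0.37 and was not called (adjusted p = 0.0199 among gene sums), though it passed under 3 of 15 alternatives. That from P10 to P28 was 0.00 ± 0.37.

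Kat6a encodes MOZ, which acts with BRPF proteins on histone H3, and had 7 peaks on and before chr8:22859535-22943259, its plus-strand gene body, 2 of them in the promoter. Summed, it held 1.16 and 1.22 RPKM at P4, 1.84 and 2.01 at P10, and 3.57, 4.06 and 5 at P28. The ages did not overlap, and the spread within P4 and P10 was small. The change from P4 to P28 was 1.24 ± 0.24 (adjusted p = 0.00249; pooled ratio 3.54, 2.41 to 5.42). Under 8 of the 15 alternatives this sum no longer passed. The only called peak lay in an intron 74.5 kb past the start, chr8:22934075-22934862, with 1.15 and 0.76 RPKM at P4, 4.58 and 2 at P10, and 5.66, 6.24 and 7.01 at P28 (1.90 ± 0.40, adjusted p = 0.00446). It passed under 6 of 15 alternatives. The promoter peak nearest the start, chr8:22859461-22860491, held 2.64 and 1.16 RPKM at P4, 5.25 and 0.76 at P10, and 6.36, 4.71 and 5.7 at P28. P10 replicate 2 lay below both P4 libraries there, and the change of 1.22 ± 0.54 was not called (adjusted p = 0.0896). It passed under 1 of 15 alternatives. The intron peak with 2 copies of TAATCC, chr8:22897267-22898264, was not called either (1.74 ± 0.60, adjusted p = 0.0413). The other promoter peak (1.01, adjusted p = 0.217), the intron peak at 11.9 kb (1.16, adjusted p = 0.0722) and the intergenic peak 3.4 kb before the start (1.22, adjusted p = 0.158) had all P28 libraries above P4 without passing. At the intergenic peak 7.3 kb before the start, P28 lay within the range of P4 (0.07 ± 0.52).

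Kat7 encodes HBO1, linked to the licensing of DNA replication, and had a promoter peak and an exon peak 33.5 kb into the gene, which lies on the minus strand of chr11:95274259-95310246. Summed, it held 1.32 and 2.59 RPKM at P4, 4.36 and 5.71 at P10, and 6.21, 6.47 and 7.59 at P28, with no overlap of ages. The change from P4 to P28 was 1.42 ± 0.25 (adjusted p = 0.00144; pooled ratio 3.58, 2.14 to 6.46), called under 12 of 15 alternatives. Of its peaks, the exon peak chr11:95276094-95276734 passed (2.13 and 2.79 RPKM at P4, 8.45 and 6.15 at P10, 6.55 to 9.43 at P28; adjusted p = 0.00697), under 4 of 15 alternatives. The promoter peak chr11:95309445-95310873 did not pass (1.43 ± 0.41, adjusted p = 0.0205), though it did under 4 of 15 alternatives. An antisense gene, Gm11520, starts under that promoter peak, and the assay cannot assign the mark to either strand.

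Kat8 encodes MOF, which acetylates histone H4, and had the lowest mean of the group at P4 and P28. Its promoter peak, chr7:127912051-127912817, held 0.59 and 0 RPKM at P4, 0 and 3.08 at P10, and 1.37, 1.68 and 3.15 at P28. P4 and P10 were at the floor with 1 and 3 reads. The change from P4 to P28 was not called (1.24 ± 0.56, adjusted p = 0.0829 among gene sums). It passed there under 3 of 14 alternatives. The pooled ratio was 5.84 (0.989 to 237).

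Acss2 encodes the acetyl-CoA synthetase of cytosol and nucleus, which turns acetate into acetyl-CoA, and lies on the plus strand of chr2:155517948-155585724. Both peaks annotated to it lie in Gss, a gene of glutathione synthesis that runs the other way on chr2:155563181-155592810. Of 4 coding transcripts of Acss2, 1 reaches them. Summed, they held 0 and 1.25 RPKM at P4, 0.76 and 0.66 at P10, and 4.41, 4.91 and 4.57 at P28. P10 lay within the range of P4 (0.19 ± 0.40, adjusted p = 0.743). All P28 libraries lay above the others (P28 against P4, 1.91 ± 0.36, adjusted p = 0.00213; pooled ratio 8.78, 3.72 to 27.2), a call that held under 6 of 15 alternatives. The peak in the 3' UTR, chr2:155584272-155585726, was called (2.20 ± 0.48, adjusted p = 0.00576) and rested on 1 P4 read. The call held under 5 of 14 alternatives. The exon peak, chr2:155567357-155568281, was not called (1.59 ± 0.64, adjusted p = 0.0709). The exon named for it is not of Acss2 but of Gss, the only other gene over this peak.

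The start of Acss2 itself carries a peak that the annotation gives to Ggt7, the divergent gene that overlaps it there (starts at 155517948 for Acss2 and 155518237 for Ggt7). It is therefore no member, and it was singled out after its values were seen. This peak, chr2:155517669-155518369, held 0.65 and 1.7 RPKM at P4, 2.58 and 9 at P10, and 28.07, 26.65 and 37.45 at P28. It was higher than any member peak at P28, with no overlap of ages, and changed by 3.89 ± 0.44 (adjusted p = 0.000265), from 3 P4 reads to 531 (pooled ratio 26.5, 9.03 to 129). Which of the paired genes the mark belongs to cannot be told apart here.

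**Figure D4:**
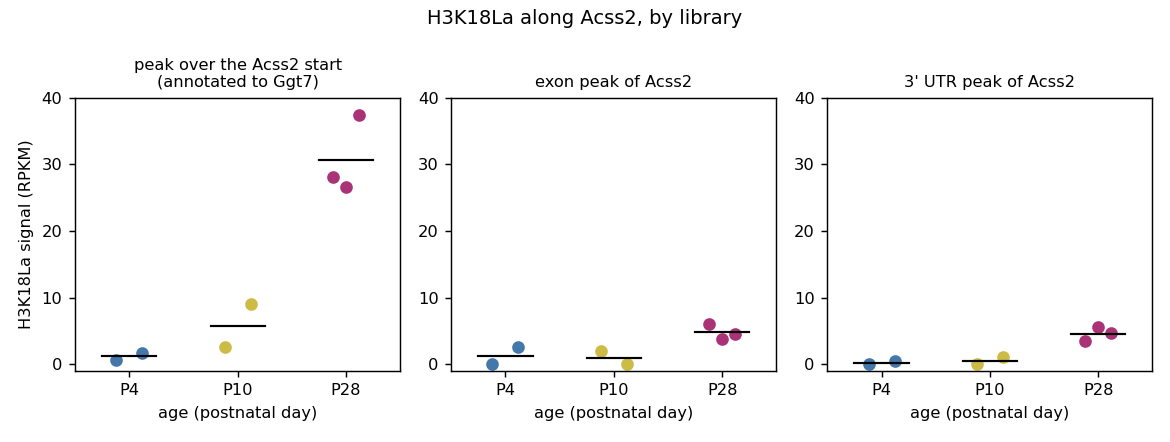
H3K18La signal in RPKM by library at the peak over the Acss2 start, which is annotated to Ggt7, and at both peaks annotated to Acss2, with bars at the mean of each age. The start peak reaches 26.65 to 37.45 RPKM at P28, and the exon and 3' UTR peaks stay at or under 5.96 RPKM. The exon of the exon peak is one of Gss.

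At P28 the gene sums, which are per length, ordered as Kat2b (9.45 ± 1.87 RPKM, SD, n = 3), Ep300 (7.46 ± 1.09), Kat7 (6.76 ± 0.73), Crebbp (5.18 ± 0.3), Acss2 (4.63 ± 0.25), Kat5 (4.57 ± 0.93), Kat6a (4.21 ± 0.72) and Kat8 (2.07 ± 0.95). Neighbours in this order overlapped except Kat7 over Crebbp and Kat6a over Kat8. Among all genes with a peak, 91.7% had a lower P28 mean than Kat2b and 38.2% a lower one than Kat8.

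For most genes P10 lay between the other ages, nearer to P28 for some than for others. Only 3 of the 36 peaks were called between P10 and P4, all higher at P10 (the Crebbp intron peak and both Kat2b intron peaks given above), where 18.7% of all peaks were called and 11.4% were higher. Both P10 libraries lay above both P4 libraries at 17 peaks, against 36.1% of all peaks. Of the gene sums, Ep300 and Kat2b were called, where 16.5% of all genes were called higher. Neither sum was called once a P4 or P28 library was left out (8.45% to 19.4% of all genes). No member peak was called without P4 replicate 1 or P28 replicate 2 (5.06% and 8.03% of all peaks). Without P10 replicate 1, 6 were (19.4% of all peaks). Between P28 and P10 no member peak and no member sum was called, against 0.00185% of peaks and 4.99% of genes. That count of 0 from limma comes with 16 peaks and 5 sums at an unadjusted p under 0.05 (32.5% of all peaks and 38.9% of all genes), and voom on the recovered reads called 4 peaks and 3 sums (8.26% of all peaks and 10.5% of all genes). Without P10 replicate 2, limma called 9 peaks (15.2% of all peaks) and 2 sums (22.4% of all genes), and without P10 replicate 1 it called 1 peak (1.02% of all peaks). All P28 libraries lay above both P10 libraries at 21 of the 36 peaks, against 32.2% of all peaks. Over the 3 ages together, limma's F-test called 16 of 36, against 24.6%, and 0 or 1 without P4 replicate 1 or 2 (3.3% and 2.75% of all peaks) and 3 to 5 without 1 of the P28 libraries (9.23% to 11.8%).

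On the log2(RPKM + 1) scale of the gene sums, the P10 mean stood 100% of the way from P4 to P28 for Kat5, 74% for Kat7, 69% for Ep300, 55% for Kat2b and Kat8, 34% for Kat6a, 28% for Crebbp and 10% for Acss2. The P10 libraries lay close together for Acss2 (12% and 8%) and Kat6a (30% and 37%) and apart for Ep300 (51% and 86%), Crebbp (2% and 54%), Kat5 (151% and 49%) and Kat8 (-27% and 137%). Scaled to reads in peaks, the change from P4 to P10 turned negative for Crebbp (-0.25), Kat6a (-0.43) and Acss2, so these positions depend on the scale. The P10 sums of Acss2 and Kat8 rested on 3 reads each. No difference between genes in this timing was tested.

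Inside a library, the split of reads between promoter and other peaks does not depend on scaling. Of the reads in member peaks, promoter peaks held 29.9% and 29.1% at P4 (95% Wilson intervals 21.7 to 39.6 and 20.3 to 39.9), 23.6% and 24.3% at P10, and 22.2%, 17.3% and 17.6% at P28. The mean share at P28 differed from that at P4 by -10.5 percentage points without overlap of libraries, while over all peaks it went from 23.7% ± 0.4 (SD, n = 2) to 29.4% ± 1.2 (SD, n = 3). Kat2b holds 3904 of the 6569 P28 reads and no promoter peak. Without its peaks the member share was 67.4% and 57.5% at P4 and 49.9%, 42.8% and 45.2% at P28, still without overlap. With 2 against 3 libraries a two-sided exact rank test cannot go below a p of 0.2, so none was used.

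Other genes of the same pathways were read at 1 promoter peak each, from lists of related genes. Of 9 other acetyltransferases with such a peak, 3 were called higher at P28 than at P4 and none lower, at a median change of 1.50. Of 37 subunits of acetyltransferase complexes, 14 were higher and none lower (median 1.49). Of 24 acyl-lysine readers, 10 were higher and none lower (median 1.55). Of 13 genes of acyl-CoA supply and lactyl transfer, 3 were higher and none lower (median 1.21). Over all 11685 protein-coding promoters 33.2% were called higher and 0.342% lower, and the median change was 1.33. On other scales a lower call appears, with 1 of 5 calls over the lists scaled to reads in peaks, 1 of 19 with median centring, 1 of 10 with quantile normalisation and 1 of 50 with voom. The shares in the lists, 33.3%, 37.8%, 41.7% and 23.1%, lay around that background. Of the 83 promoters 30 were called in all, against 7 without P4 replicate 1 or 2, 12, 8 and 10 without P28 replicate 1, 2 and 3, and 54 without a P10 library. Over all peaks 23.1% were called, and 7.18% and 7.66% without a P4 library. Without a P28 library 13.7%, 10.6% and 10.5% of all peaks were called, and without a P10 library 39.0% and 39.2%. Most of all peaks lie outside promoters, and no share over promoters alone is given for these settings.

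**Figure D5:**
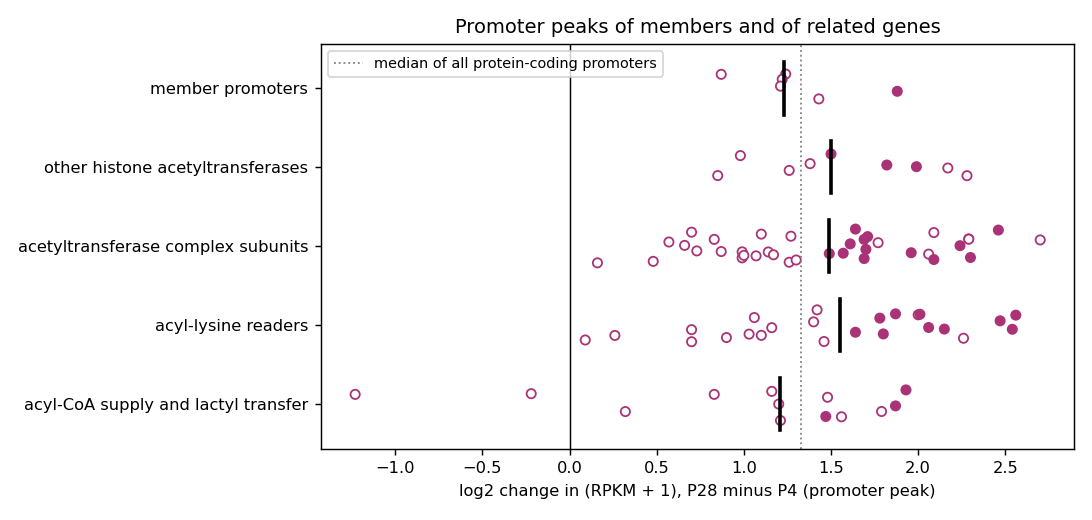
Change in log2(RPKM + 1) from P4 to P28 at 1 promoter peak per gene for the members and for 4 lists of related genes, with a bar at each median and filled points at an adjusted p under 0.01. The list medians (1.21 to 1.55) lie around the median of all protein-coding promoters (1.33), and Acss3 is the lowest point at -1.23.

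Kat6b, the paralogue of Kat6a, stood out among the other acetyltransferases. Its promoter peak held 7.46 and 6.68 RPKM at P4, 20.21 and 24.41 at P10, and 32.99, 27.18 and 33.25 at P28 (1.99 ± 0.25, adjusted p = 0.000366). It was above each member promoter in every library. It is named, with Ncoa1 (1.50, adjusted p = 0.0024) and Clock (1.82, adjusted p = 0.00125), as one of the 3 called genes of that list, a choice made after their values were seen. By the naming rule, the largest changes in the list were those of Naa60 (2.28, adjusted p = 0.0149) and Taf1 (2.17, adjusted p = 0.0145), neither called, and the smallest those of Kat14 (0.98) and Hat1 (0.85).

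Among complex subunits, Usp22, the deubiquitinase of SAGA, had the largest change but did not pass (2.70 ± 0.80, adjusted p = 0.0226). Ep400, the ATPase of the TIP60 complex, followed and passed (2.46 ± 0.40, adjusted p = 0.00126; mean RPKM 2.16 at P4, 8.75 at P10 and 16.3 at P28). The smallest changes were those of Morf4l1 (0.48) and Supt3 (0.16). Among readers, which bind acylated lysines through bromodomains, YEATS domains or double PHD fingers, the bromodomain genes Atad2b (2.56 ± 0.29, adjusted p = 0.00025) and Baz2b (2.54 ± 0.29, adjusted p = 0.000278) led. Baz2b had means of 2.3, 10.5 and 17.91 RPKM over the ages. Atad2, the paralogue of Atad2b, had one of the smallest changes (0.09 ± 0.53), with Dpf1 (0.26).

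In acyl-CoA supply, Acly, which makes acetyl-CoA from citrate, rose by 1.93 ± 0.39 (adjusted p = 0.00408). Aars, an alanyl-tRNA synthetase gene whose product has been described as a lactyltransferase, rose by 1.87 ± 0.38 (adjusted p = 0.00392). The synthetase genes Acss1 and Acss3, relatives of Acss2 in mitochondria, had the smallest changes, -0.22 ± 0.52 and -1.23 ± 0.46. At Acss3 every P28 library lay below both P4 libraries, but the difference did not pass (adjusted p = 0.0531). Gtf3c4, Supt7l, Dmap1, Ruvbl2, Ing4, Brd9, Phf10 and Slc25a1 had no peak.

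For Ep300 and Acss2, the genes with the most similar profile were looked up among 11685 protein-coding promoters, by the root mean square difference of log2(RPKM + 1) over 7 libraries. Nearest to the Ep300 peak were the promoters of Cops9 (0.10), Sdr39u1 (0.11) and Upk2 (0.13). Nearest to the 3' UTR peak of Acss2 were those of Atp6v1e1 (0.16), Pabpc4 (0.22) and Dnajc12 (0.23). The Cops9 promoter, for one, held 1.36 and 1.43 RPKM at P4, 3.24 and 5.65 at P10, and 6.12, 6.54 and 8.26 at P28.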

How the data were processed

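H3K18La CUT&Tag libraries were mapped to GRCm38 with nf-core/cutandrun. MACS peaks with −log10 q beyond 6 in at least 2 replicates of an age were merged over the ages and annotated with ChIPseeker 1.34.1. The authors deposited 1 RPKM value per peak and library, from csaw reads per peak with a normalisation taken from 10000-base windows. RPKM times width gave whole reads at 100.0% of the peaks (tolerance 0.05 read). The authors' deposited comparisons (fold changes, p-values and FDR) were not used.

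Groups came from the labels. limma 3.58.1 (R 4.3.3) was fitted to log2(RPKM + 1) over all 7 libraries and 108253 peaks, or 25400 gene sums, with a variance trend, no covariate and Benjamini-Hochberg adjustment, and was tested on simulated data. The fold scale understates low peaks. Peaks were called at an adjusted p under 0.01. The fit to the deposited RPKM took the place of the study's count model, and voom on the recovered reads was run as an alternative. Density ratios pool the reads of an age. Named were all members by gene sum and nearest promoter peak, their called peaks, the 2 largest and 2 smallest changes of each list, and the 3 nearest profiles. Members, lists and tests were chosen with earlier results of these data known. Promoter sequences came from RefSeq (GRCm38, 8 of 9 genes), peak sequences from the GRCm38 genome (1 further window is not reported here), and overlaps from GENCODE M21. Alternatives were pseudocount, filter, scaling, voom, library weights, replicate block and each library left out. The P4 libraries gave a chi-square per degree of freedom of 1.01 over genes, within sampling noise, and of 1.24 in 1 Mb bins (p = 7.8e-15), beyond it, and count as 2.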

Additional observations from a re-analysis of the deposited data

How the results depend on the processing

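Depth limits the members: 23 of 36 peaks at P4 and 21 at P10 had no library over 3 reads. Settings other than those below kept the counts within 1.5 times. Among named peaks and genes, 435 results kept their side of the threshold, 183 lost a call, 14 gained one and 7 reversed; the cause was not tested. Beside 19 member peaks called from P4 to P28, a pseudocount of 0.1 gave 12 and scaling to reads in peaks 6 (14.2% and 22.9% of all peaks). Median centring gave 9 and quantile normalisation 12 (23.0% and 26.2%), and leaving out 1 library 2 to 24 (7.18% to 39.2%). Beside 6 sums, scaling gave 2, quantile normalisation 3 (37.0% and 38.3% of all genes) and leaving out 1 library 2 to 8. Beside 30 promoters of related genes, scaling gave 5, median centring 19, quantile normalisation 10, voom 50, library weights 57, an adjusted p under 0.05 55 (22.9%, 23.0%, 26.2%, 41.5%, 42.6% and 42.0% of all peaks), and leaving out 1 library 7 to 54. For P10 against P4, beside 3 peaks, quantile normalisation gave 1 (6.73% of all peaks) and library weights 0 (5.02%). An adjusted p under 0.05 gave 9 (35.0%), and leaving out 1 library 0 to 6 (5.05% to 19.4%). Beside 2 sums, scaling, quantile normalisation and library weights gave 0 (30.2%, 19.7% and 12.1% of all genes). With voom 1 was called (21.4%), at an adjusted p under 0.05 4 (39.5%), and leaving out 1 library 0 to 2 (8.45% to 27.9%). For P28 against P10, beside 0 peaks from limma (16 at an unadjusted p under 0.05), a pseudocount of 0.1 gave 2, median centring 1, voom 4 and an adjusted p under 0.05 10 (1.23%, 2.17%, 8.26% and 13.4% of all peaks). There, leaving out 1 library gave 0 to 9 (0.0% to 15.2%). Beside 0 sums from limma (5 at an unadjusted p under 0.05), voom gave 3 and an adjusted p under 0.05 4 (10.5% and 22.9% of all genes). For these sums, leaving out 1 library gave 0 to 2 (0.0% to 22.4% of all genes). Over the 3 ages, beside 16 peaks, a pseudocount of 0.1 gave 8 (14.0% of all peaks), scaling 4 (23.5%) and quantile normalisation 10 (18.4%). Leaving out 1 library gave 0 to 25 (2.75% to 47.3% of all peaks).

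The median promoter change from P4 to P28, 1.23, was 1.77 with a pseudocount of 0.1, 0.21 scaled to reads in peaks, 0.71 with median centring, 0.78 with quantile normalisation, 1.60 with voom, and 0.97 to 1.52 without 1 library. From P4 to P10, 0.78 became 1.16, 0.07 and 0.53 under the first 3 of these, 1.45 with voom, and 0.64 to 1.11 without 1 library. From P10 to P28, 0.57 became 1.04 with a pseudocount of 0.1, 0.30 with median centring, and 0.19 to 0.96 without 1 library. The promoter share difference of -10.5 points was -16.5 without Kat2b, a setting chosen after seeing the data, and -15.2 as a mean of the shares of genes. Scaling to reads in peaks reversed the wide Crebbp promoter peak (-0.31) and, for P10 against P4, the sums of Crebbp (-0.25), Kat6a (-0.43) and Acss2 (-0.24). The Acss2 sum also reversed with median centring (-0.01) and without P4 replicate 1 (-0.40, in a range of -0.40 to 0.77 without 1 library), and the Kat8 sum without P10 replicate 2 (-0.34, in a range of -0.34 to 1.69).

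Replicate numbers did not pair the samples, since correlations of deviations between same-numbered libraries ran from -0.001 to 0.047. With the numbers as a replicate block, 9 member peaks were called from P4 to P28 (14.1% of all peaks), 15 promoters of related genes, 1 peak and 0 sums from P4 to P10 (15.5% of all peaks and 16.8% of all genes), and 5 peaks over the 3 ages (15.0%).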
